A study of Mus musculus with 2 samples.

Results

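Late-granule neutrophils are immature neutrophils whose RNA is rich in transcripts for proteins of the late (secondary) granules. They were taken here as cell barcodes with at least 20 unique molecular identifiers (UMIs, 1 per captured RNA molecule) for Camp, Ngp and Ltf together and fewer than 5 UMIs for the primary-granule genes Elane, Prtn3, Mpo and Ctsg. Barcodes first had to hold at least 500 genes and at most 25% mitochondrial UMIs. Of 19135 barcodes that passed, 347 met this rule, and all 347 came from the 9-week library. The members were thus chosen by the measured counts of these 7 genes, and the levels of those genes below describe the choice and test nothing. The members were set against 478 mature neutrophils of the same library, which had S100a8 and S100a9 at 2% or more of their UMIs and fewer than 20 UMIs of Camp, Ngp and Ltf. They were also set against 30 granulocyte precursors with at least 20 UMIs of the 4 primary-granule genes.

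The study profiled adrenal glands of female C57BL/6J mice of genotype SF1-Cre+;Znrf3Fx/Fx by droplet single-cell RNA sequencing of 3′ ends. One library was made from 2 adrenals at 6 weeks of age and one from 3 adrenals at 9 weeks, the ages that the study's design describes as hyperplasia and the start of regression. Both ages carry the same Cre and the same floxed Znrf3 alleles, and no gland without Cre is analysed here. SF1-Cre is known for its activity in steroidogenic adrenocortical cells, where it removes Znrf3, a ubiquitin ligase that lowers Wnt receptor levels, and it is not known for activity in the blood lineage. Glands were pooled and digested, red blood cells were lysed, and live nucleated cells (stained by DyeCycle Ruby and free of DAPI) were sorted, so the share of a cell type also depends on how it came through these steps. With 1 library per age no test across samples is possible. Intervals below are exact 95% limits for counting error only and do not cover differences between mice. For a count of 0 the limit given is what 3 counts would make.

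Neutrophils are made in the bone marrow in ordered steps. Promyelocytes make the primary granule proteases and myeloperoxidase, myelocytes and metamyelocytes make the specific granule proteins, band cells make gelatinase granules, and segmented cells make secretory vesicles and surface receptors. The transcription factor C/EBPε is needed for the specific granule step, and cells stop dividing around the myelocyte to metamyelocyte step. Camp encodes the antimicrobial peptide precursor cathelicidin, Ngp a cystatin-like granule protein, Ltf the iron-binding protein lactoferrin, and Lcn2 the siderophore-binding protein lipocalin 2.

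Camp (ENSMUSG00000038357, chr9:109847379-109849617, minus strand), Ngp (ENSMUSG00000032484, chr9:110419747-110423012, plus strand) and Ltf (ENSMUSG00000032496, chr9:111019271-111042767, plus strand) lie within 1195 kb of each other on chromosome 9 in GRCm38 (mm10), by the GENCODE annotation. Lcn2 (ENSMUSG00000026822, chr2:32384633-32388252, minus strand) lies on chromosome 2. The 250 bases before each RefSeq start in GRCm38.p6 were searched for TTGCNNAA and its reverse complement TTNNGCAA, the core of the palindrome that C/EBP factors are known to bind. These stretches are shown because the rule rests on these genes, and they are given 5′ to 3′ on the gene's strand, up to the first base of any GENCODE exon of the gene, with matches in capitals.
Camp, chr9:109849618-109849706: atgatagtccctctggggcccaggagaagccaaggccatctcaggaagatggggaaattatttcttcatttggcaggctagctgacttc
Ngp, chr9:110419558-110419746: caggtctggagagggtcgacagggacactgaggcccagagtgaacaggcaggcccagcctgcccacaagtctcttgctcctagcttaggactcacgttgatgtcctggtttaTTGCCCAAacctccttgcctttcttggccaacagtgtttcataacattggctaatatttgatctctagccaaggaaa
Ltf, chr9:111019042-111019270: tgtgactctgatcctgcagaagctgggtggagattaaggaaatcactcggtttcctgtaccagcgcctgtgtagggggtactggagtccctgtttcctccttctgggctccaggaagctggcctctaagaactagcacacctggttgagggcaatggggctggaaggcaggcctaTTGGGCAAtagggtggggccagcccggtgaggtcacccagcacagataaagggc
The full 250-base windows held 0 matches for Camp, 2 for Ngp, 1 for Ltf and 1 for Lcn2. The second Ngp match, TTGGGCAA, and the Lcn2 match, TTGCTCAA, lie in bases that are not printed. Each of these lies inside the GENCODE span of its gene, as does the whole Lcn2 window. In the Camp window only the 89 printed bases lie before the GENCODE span of Camp. Of 32851 RefSeq promoter windows of the same length, 9.56% held at least 1 match. A match is a run of letters and not a measured binding site.

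At 9 weeks, 347 of 10527 barcodes, or 3.30% (2.96 to 3.66), were late-granule neutrophils. At 6 weeks there were 0 of 8608, which allows a share of up to 0.0349%. Among 6-week barcodes kept with fewer than 5 primary-granule UMIs, the highest Camp, Ngp and Ltf sum was 5 UMIs. Mature neutrophils were present at both ages, at 2.04% (1.76 to 2.37; 176 barcodes) at 6 weeks and 4.54% (4.15 to 4.96) at 9 weeks. Granulocyte precursors held 0.285% (0.192 to 0.407) at 9 weeks and 0 of 8608 at 6 weeks. Of the 854 granulocytes of the 9-week library, 40.6% (37.3 to 44.0) were late-granule neutrophils, against 0 of 176 at 6 weeks, which allows up to 1.70%. The 9-week share of granulocytes was 68.2% when barcodes had to hold 1000 genes, since 334 of 347 members and 127 of 478 mature neutrophils did. Over all barcodes kept, those of 6 weeks were deeper, with a median of 12057.5 UMIs against 7414 at 9 weeks. Mature neutrophils were shallower at 6 weeks, with a median of 1594.5 UMIs against 2025.5 at 9 weeks. Of the 176 at 6 weeks, 18 held 1000 genes. Because 2 or 3 adrenals were pooled per library, an age difference and a difference between single glands cannot be told apart. The libraries shared 29 barcode sequences, none of them a member.

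**Figure D1:**
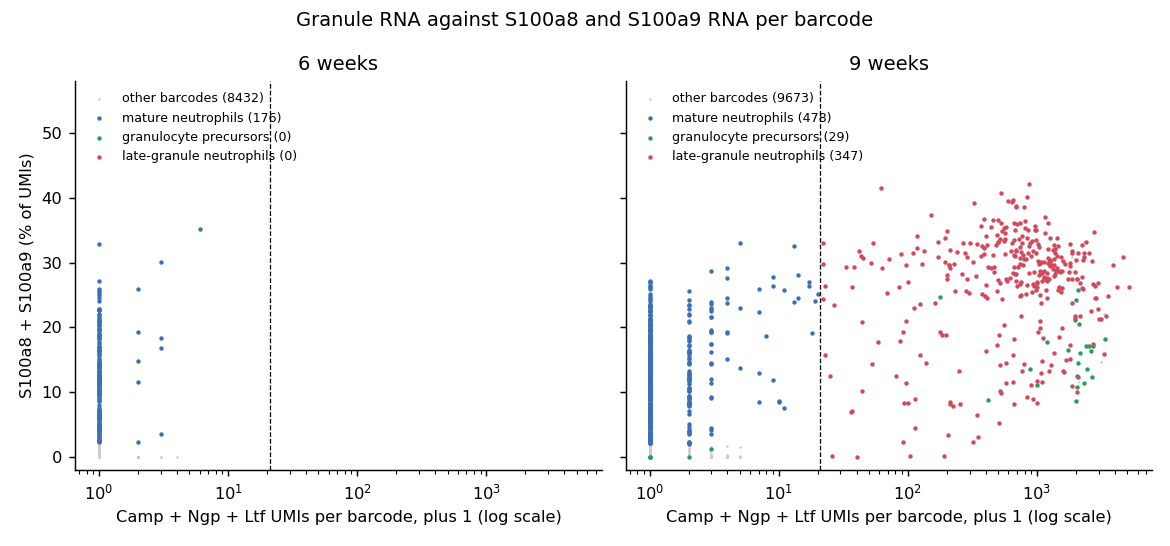
Each point is a barcode, with its Camp, Ngp and Ltf UMIs plus 1 on a log axis and its S100a8 and S100a9 share of UMIs on the vertical axis, for 6 weeks (left) and 9 weeks (right); the dashed line marks 20 UMIs. At 6 weeks no barcode lies right of the line, while at 9 weeks 347 late-granule neutrophils and most precursors do. The barcode that meets both the mature and the precursor rule is drawn as mature.

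Few barcodes lay near the threshold on Camp, Ngp and Ltf. Just inside the threshold, 6 barcodes held 20 to 24 UMIs, just outside it 5 held 15 to 19, and 284 of the 347 held 200 or more. The sum ranged from 21 to 5107 UMIs per member with a median of 737, which was 0.198% to 17.8% of a barcode's UMIs with a median of 8.43%. On the other side of the rule, 322 members had no primary-granule UMI, 13 had 1 and 12 had 2 to 4, while 3 barcodes lay just outside at 5 to 9. A member held a median of 9560 UMIs (876 to 47914) and 1985 genes, a mature neutrophil 2025.5 UMIs.

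The rule set only the sum of Camp, Ngp and Ltf. Camp and Ngp each had a UMI in all 347 members and Ltf in 333. The label was checked on genes outside the rule. Lcn2 had a UMI in all 347 members, and S100a8 and S100a9 together made up a median of 28.6% of UMIs, and 4 members were below 2%. These 3 genes are known marks of the neutrophil lineage, and their presence goes with that part of the label only. Lcn2 also had a UMI in 77.6% of mature neutrophils and 93.3% of precursors, so its presence does not mark the stage. Eosinophil, mast cell or basophil, erythroid, fibroblast and chromaffin marker sets reached 10 UMIs in no member. Prg2 and Epx of eosinophils, Mcpt8 of basophils and Th of chromaffin cells were at 0. Other genes of these sets were not, and Ear2 held 214 of the 218 UMIs of the eosinophil set in members. That set was at 52.2 CPM in members and at 12.8 CPM in both mature neutrophils and precursors. Other cell types did appear in some barcodes: 30 members held 10 or more UMIs of 6 macrophage markers, 12 of 5 cortical markers, 11 of 5 T or NK markers, 7 of 4 B cell markers, 7 of 5 dendritic markers and 5 of 4 endothelial markers. Summed over members the macrophage set was at 1351 CPM (UMIs relative to all UMIs of the group, on the usual scale), against 1321 CPM in mature neutrophils, and its part in the comparisons was not tested beyond the values given without these barcodes. The granulocyte precursor set reached 10 UMIs in 5 members, and a 9-gene mature neutrophil set, which holds S100a8 and S100a9, in all 347. A 5-gene monocyte set reached 10 UMIs in 239 members. One of its genes, Ly6c2, which granulocytes also express, was at 1298 CPM in members and 469 CPM in mature cells. The doublet caller marked 40 of the 347 members (11.5%) and 25 of the 478 mature neutrophils. These barcodes were kept, as the rule has no doublet step, and results that change without them are given with both values.

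Against mature neutrophils of the same library, a far larger share of the UMIs of late-granule neutrophils came from specific granule and mitosis genes. A far smaller share came from receptor, cytokine, interferon-response and immediate early genes. Members were deeper, with a median of 9560 UMIs per barcode against 2025.5, so a lower share need not mean fewer UMIs per barcode. Levels are CPM of UMIs summed over a group, and a gene counts as higher or lower when the log2 ratio of CPM plus 5 passes 2-fold. This is a rule of size and not a test, and since the same counts chose both groups the totals are given as a description. Of 7407 genes with 10 CPM in a group and 10 UMIs, 366 (4.94%) were higher and 1037 (14%) lower in late-granule neutrophils. The median log2 ratio over all these genes was -0.26. UMIs outside the rule genes, S100a8, S100a9 and the mitochondrial and ribosomal genes made up 61.2% of the total in members and 79.6% in mature neutrophils. With scaling by the trimmed mean of M values, which shifts every log2 ratio by 0.35, the counts were 621 higher and 670 lower. With S100a8 and S100a9 at 5% for mature cells, 884 genes were higher. Among mature barcodes, 19 held 10 or more UMIs of the monocyte, 10 of the macrophage and 8 of the cortical markers. A further 7 did so for the endothelial and 5 for the T or NK markers. The part of such barcodes in the counts was not tested.

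Specific granule genes outside the rule were mostly higher. Without Camp, Ngp and Ltf, whose ratios the rule fixed, 13 of 19 measured genes of that list were higher and 1 lower, with a median log2 ratio of 2.31. With those 3 genes the counts were 16 and 1 of 22 and the median 2.67. Among the rule genes, Ltf stood at 8033 CPM (7947 to 8119) against 10.5 CPM (5.74 to 17.6). Camp stood at 34219 against 82.5 CPM and Ngp at 34711 against 192 CPM. Lcn2, outside the rule, was at 18349.9 CPM (18220.3 to 18480.2) and 2801 CPM (2712 to 2892), a ratio of 6.55-fold (6.3 to 6.81). Chil3, a chitinase-like lectin, was 50.1-fold (43.1 to 58.4) higher, at 7548 and 151 CPM. Itgb2l, a β2-type integrin, was at 228 and 10.5 CPM, and Cd177, a glycoprotein of the neutrophil surface and granule membrane, at 867 and 137 CPM. Orm1 (an acute phase glycoprotein) was at 185 and 1.5 CPM, and Abca13 (a lipid transporter) at 56.9 and 1.5 CPM, the mature values resting on 2 UMIs each. Cybb, the catalytic subunit of the NADPH oxidase, was 8.21-fold (7.13 to 9.47) higher, at 1730.0 and 211 CPM, and the proton channel Hvcn1 was at 46.7 and 6 CPM. The other 7 of 9 oxidase genes stayed within 2-fold. Lrg1 was the specific granule gene that was lower, at 644 and 1431 CPM.

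Some regulators of granule formation and some nuclear genes also differed. Cebpe, which encodes C/EBPε, was at 494 CPM (473 to 516) against 30.01 CPM (21.4 to 40.9), a ratio of 16.5-fold (11.6 to 24.1). Gfi1, a repressor needed for neutrophil commitment, was at 14.1 and 1.5 CPM, and the LIM-only gene Lmo1 at 59.6 and 7.5 CPM. In the other direction, Cebpb was at 288 and 911 CPM, Cebpd at 374 and 1050.2 CPM and the Myc antagonist Mxd1 at 362 and 1016 CPM. In all, 3 of 30 measured factors were higher and 10 lower, with a median of -0.41. Of 26 nuclear envelope and chromatin genes, 6 were higher and 3 lower, with a median of -0.07. Zmpste24, the protease that processes prelamin A, was 25.9-fold (15.3 to 46.8) higher at 330.0 and 12.8 CPM. The nuclear envelope linker Syne1 was at 444 and 57 CPM, while Lmnb1, which encodes lamin B1, was lower at 97.9 and 335 CPM. Serpinb1a, an inhibitor of neutrophil serine proteases, was at 831 and 70.5 CPM, Inhba, the inhibin βA subunit, at 96.7 and 6 CPM, and the ficolin gene Fcnb at 128 CPM (117 to 139) and 1.5 CPM (0.182 to 5.42).

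The 4 rule genes of the primary granule were nearly absent from members, and 1 barcode set their level in mature neutrophils. That barcode, with 34524 UMIs and 2.45% of S100a8 and S100a9, met both the mature and the precursor rule and held 115 of the 115 Mpo UMIs of the mature group, 99 of 99 for Ctsg, 55 of 56 for Elane and 193 of 198 for Prtn3. The primary granule list had 3 genes higher and 6 lower of 13 measured (median -0.10) with it and 4 higher and 2 lower of 10 (median 0.83) without it. Without it the counts over all genes were 404 higher and 1087 lower.

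Many cytokine, receptor and interferon-response genes stood below their mature level, while cytoskeleton and motility genes were mostly within 2-fold (3 of 36 higher, 4 lower, median -0.07). Of 20 measured inflammatory cytokine genes, 13 were lower and 0 higher, with a median log2 ratio of -1.90. Il1b, the interleukin 1β gene, was at 45.9 CPM (39.7 to 52.9) against 2466 CPM (2382 to 2551), 53.7-fold higher in mature cells. Ccl6, a CC chemokine, was at 102 and 2153 CPM, and Wfdc17, a small secreted protein of myeloid cells, at 58.6 and 2946 CPM. Of 22 secretory vesicle and surface receptor genes, 17 were lower and 0 higher (median -1.73). Csf3r, the receptor for the neutrophil growth factor G-CSF, was at 131 CPM (119.9 to 142) and 1745 CPM (1675 to 1817). The lectin receptor Clec4d was at 64.6 and 782 CPM, and the signal-regulatory genes Sirpb1b and Sirpb1c at 5.26 and 8.14 CPM in members and 215 and 194 CPM in mature cells. Sirpb1b and Sirpb1c are close paralogs, so their split is uncertain.

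Of 28 chemokine and cytokine receptor genes, 22 were lower and 0 higher (median -1.43). Cxcr2, the receptor through which neutrophils leave the marrow, was at 339 CPM (322 to 357) and 1938 CPM (1864 to 2014), and Ccr1 at 147 and 707 CPM. Cxcr4, which retains neutrophils in the marrow, was within 2-fold, at 96.4 and 163 CPM. Among 39 genes of the interferon response, 29 lay lower and 0 higher (median -1.45), with Ifitm1 at 101 and 4388 CPM and Isg15 at 80.2 and 419 CPM, while Ifitm3 was within 2-fold at 1939 and 2109 CPM. Of 16 immediate early and stress genes, which also respond to tissue dissociation, 12 were lower and 0 higher (median -1.86). Dusp1 was at 35.9 and 849 CPM, Junb at 62.5 and 949.7 CPM, and Socs3, a brake on cytokine signalling, at 8.61 and 194 CPM. The part of dissociation in the receptor and cytokine values was not tested.

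Further genes low in members included the metalloreductase gene Steap4 at 0.957 and 166 CPM, the class I gene H2-Q10 at 15.8 and 708 CPM, the fibrinogen-like gene Fgl2 at 38 and 782 CPM, the adhesion gene Jaml at 40.4 and 698 CPM, Prr5l at 4.55 and 150.0 CPM and the granule proteoglycan gene Srgn at 259.9 and 3568 CPM. Of 25 apoptosis regulators, 8 were lower and 0 higher (median -0.45). Mcl1, needed for neutrophil survival, was at 306 and 1819 CPM, and Bax, which promotes cell death, was within 2-fold at 62.5 and 61.5 CPM. Ribosomal protein genes (median -0.15, 1 of 83 lower) and oxidative phosphorylation genes (median 0.15, 1 of 75 higher) were mostly within 2-fold. Their median changed sign with the settings tried, from -0.38 to 0.61 for the first and from -0.05 to 0.67 for the second. The gelatinase granule list was mixed, with 1 gene higher and 5 lower of 13. Mmp25 was at 154 and 72 CPM, Slpi at 928 and 4323 CPM, and Mmp8 and Mmp9 were within 2-fold. The lists sort genes by name only, and which granule stores each protein was not measured.

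**Figure D2:**
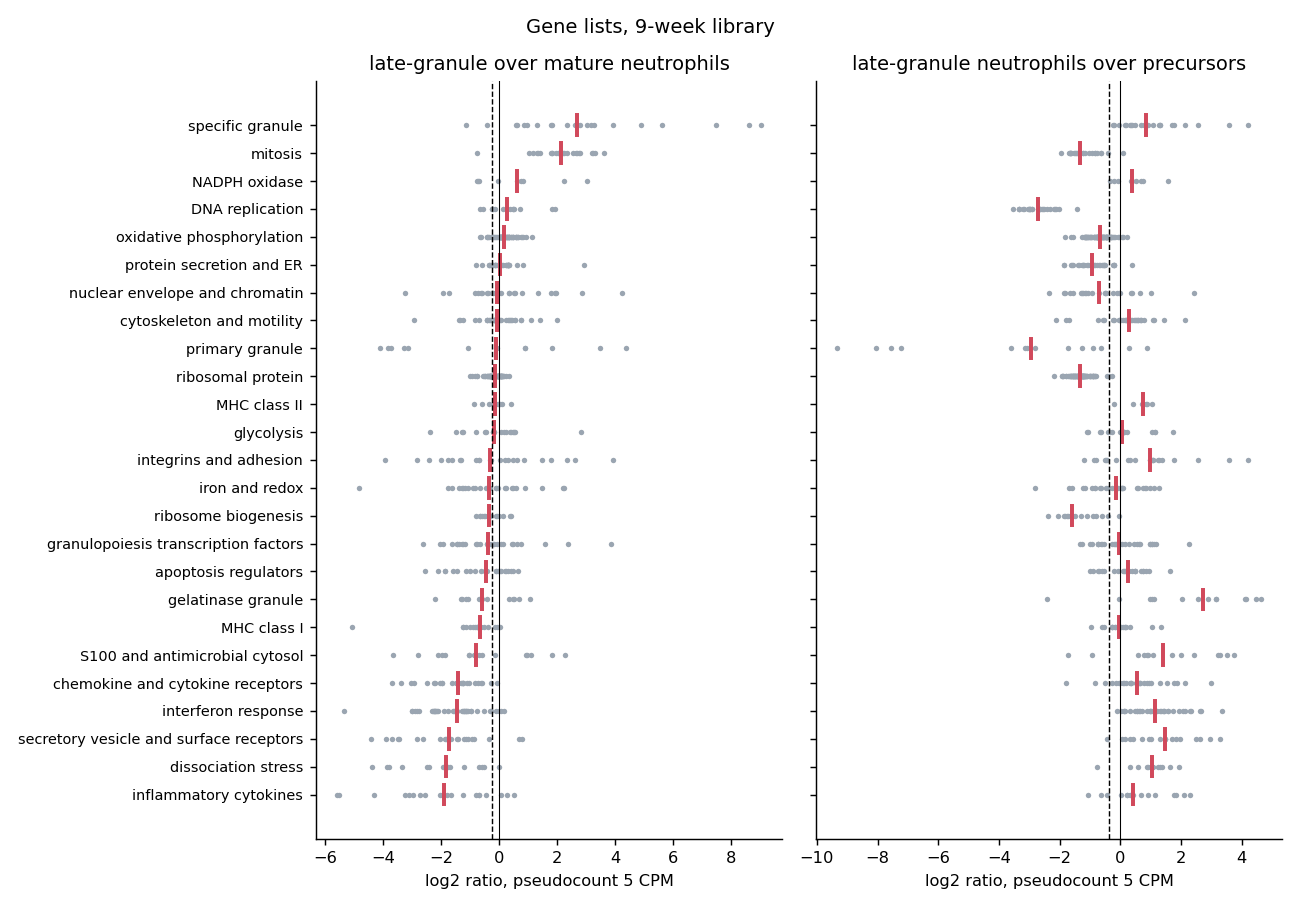
Log2 ratios (CPM plus 5) of the genes in each of 25 lists, grey points, with the list median as a red bar, the median of all genes as a dashed line and equality as a solid line; late-granule over mature neutrophils on the left, over granulocyte precursors on the right. The specific granule list (median 2.67, with the 3 rule genes) and the mitosis list (2.14) lie right of the dashed line on the left panel, and the gelatinase granule list (2.73) lies furthest right on the right panel.

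As a share of UMIs, late-granule neutrophils held more gelatinase granule, receptor and interferon-response RNA than granulocyte precursors. By the same measure they held less RNA for primary granules, DNA replication and ribosomes. Precursors were deeper, with a median of 31570.5 UMIs per barcode. Of 7782 genes, 519 (6.67%) were higher and 1583 (20.3%) lower, with a median of -0.37. Scaled by the trimmed mean of M values, 1015 were higher and 801 lower, and without doublet calls 2410 were lower. The 30 precursors are few, and 6 of them held fewer than 20 Camp, Ngp and Ltf UMIs. The gelatinase granule list had 11 of 14 genes higher and 1 lower (median 2.73). The collagenase gene Mmp8 was at 1333 CPM (1298 to 1369) against 55.3 CPM (41.3 to 72.5), a ratio of 24.1-fold (17.9 to 33.2). The gelatinase gene Mmp9 was at 1428 and 52.1 CPM, Retnlg, a resistin-like secreted protein, at 8871 and 492 CPM, and the formyl peptide receptor Fpr2 at 249 and 9.57 CPM. Chit1, a chitinase gene, was the one that was lower, at 0.479 CPM (2 UMIs) and 24.5 CPM.

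The specific granule list without the 3 rule genes had 9 of 19 genes higher than in precursors and 0 lower (median 0.78), and with them 10 of 22 (median 0.85). Ltf was at 8033 and 1354 CPM, a ratio of 5.93-fold (5.55 to 6.34), and Lcn2 at 18349.9 and 5562 CPM, a ratio of 3.3-fold (3.19 to 3.41). Camp, at 34219 and 29793 CPM, Chil3, at 7548 and 8703 CPM, and Cebpe, at 494 and 592 CPM, were within 2-fold. Ly6g, the surface marker used to sort neutrophils, was at 1235 CPM (1201 to 1269) and 61.7 CPM (46.8 to 79.7), and Ceacam10 at 157 and 8.5 CPM. A further 3 genes had no UMI in the precursors, where 3 UMIs would be 3.19 CPM: the kinase gene Bmx and the cystatin gene Stfa2l1, each at 62.7 CPM in members, and Cd55, a complement regulator, at 57.4 CPM. The protease gene Asprv1 was at 131 and 5.32 CPM. Cxcr2 was at 339 and 38.3 CPM, and the interferon list was past 2-fold higher in 21 of 36 genes (0 lower, median 1.14).

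The primary granule list without its 4 rule genes had 6 of 10 genes lower and 0 higher (median -1.48), and with them 10 of 14 lower (median -2.94). Outside the rule, Ms4a3, a marker of granulocyte and monocyte progenitors, was at 44.5 CPM (38.3 to 51.4) against 593 CPM (545 to 645), 13.3-fold higher in precursors, and Fcnb was at 128 and 1168 CPM. All 27 DNA replication genes were lower (median -2.70), among them the nucleotide hydrolase gene Dut at 27 and 366 CPM, the DNA ligase gene Lig1 at 14.6 and 193 CPM and the checkpoint gene Clspn at 6.22 and 108 CPM. Of 82 ribosomal protein genes 67 were lower (median -1.32), of 18 ribosome biogenesis genes 13 (median -1.58), and of 33 secretion and endoplasmic reticulum genes 13 (median -0.93), with 0 higher in each. Over the settings tried, the ribosomal protein median ranged from -1.70 to -0.87 and the ribosome biogenesis median from -2.22 to -0.91. Both thus came within 2-fold in some settings. Dmkn had 0 UMIs in members and 54.2 CPM in precursors. F13a1, a coagulation factor gene also used as a monocyte marker, was at 7.66 and 135 CPM, a log2 ratio of -3.47. It was -0.31 when only precursors with 20 Camp, Ngp and Ltf UMIs were used.

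Across the 3 stages, 6836 genes were measured in both comparisons. From precursors through late-granule to mature neutrophils, 219 genes were higher by 2-fold at both steps and 92 lower at both. In 45 genes the late-granule level was above both neighbours by 2-fold, and in another 45 below both. Both comparisons use the late-granule group, so the last 2 counts are a description of that group's levels only. Among the genes above both were Ltf, Lcn2, Ly6g and Cd177, described above. Others were Ifitm6, an interferon-induced membrane protein gene, at 307, 3559 and 731 CPM in precursors, late-granule and mature neutrophils. Anxa1, the annexin that limits neutrophil recruitment, was at 1741, 4145 and 1082 CPM, the actin-capping gene Capg at 71.2, 329 and 79.5 CPM, and the glucokinase gene Adpgk at 223, 498 and 66 CPM. The ribonuclease gene Ear2, also a gene of the eosinophil set, was at 4.25, 51.2 and 3 CPM. It belongs to a family of near-identical copies, so its level is uncertain.

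**Figure D3:**
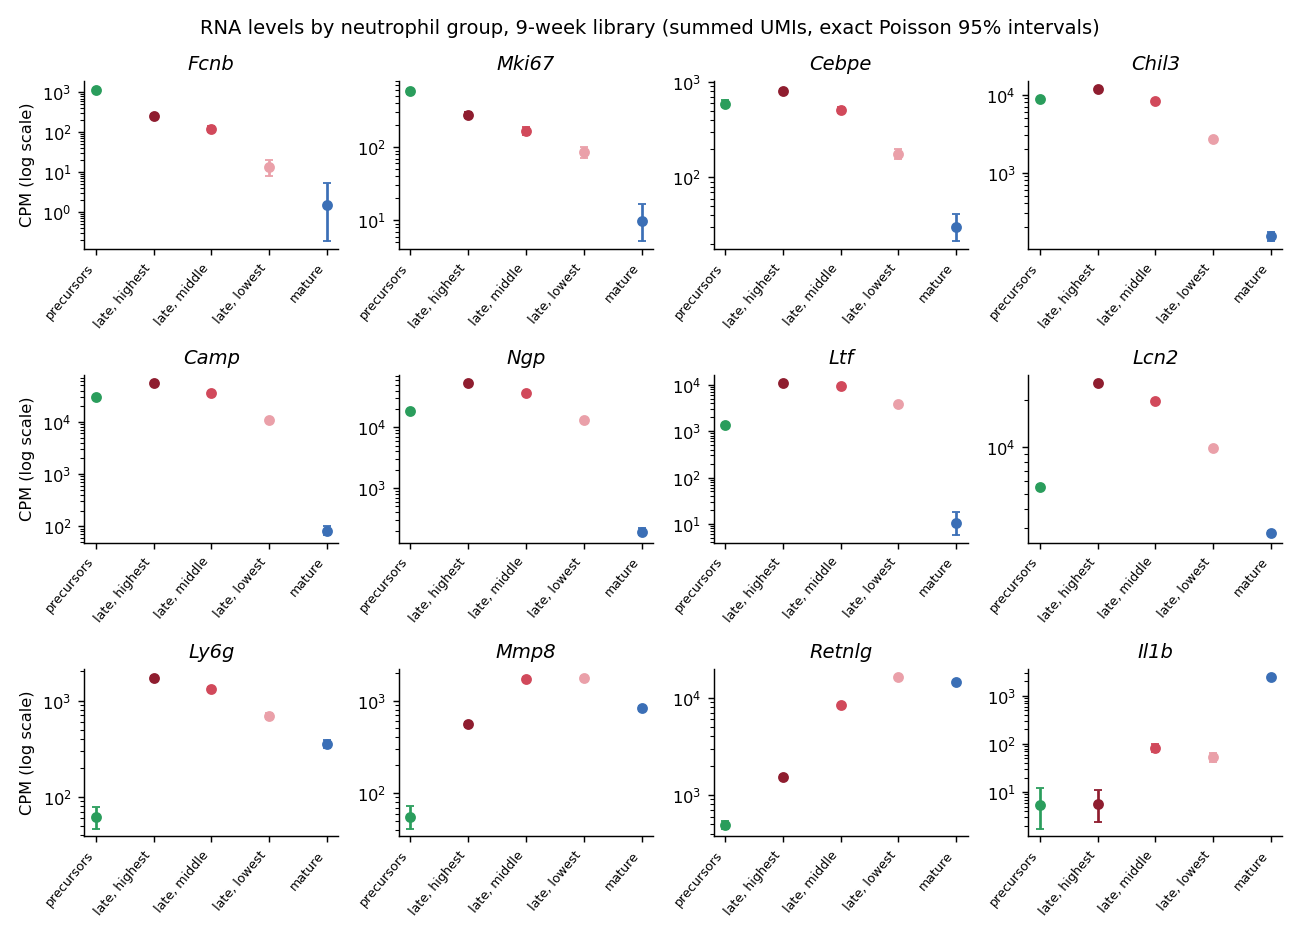
CPM of 12 genes on log axes with exact Poisson 95% intervals in the 9-week granulocyte precursors, in the late-granule neutrophils split by Camp, Ngp and Ltf share (highest, middle, lowest) and in mature neutrophils. The split is of all members, doublet calls and macrophage barcodes included. Fcnb, Mki67 and Cebpe are lowest in mature neutrophils, Retnlg is lowest in precursors at 492 CPM, and Il1b is highest in mature neutrophils at 2466 CPM.

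Part of the late-granule neutrophils carried mitotic RNA. After each barcode was thinned to 2000 UMIs, 55 of 342 members, or 16.1% (12.4 to 20.4), held 2 or more UMIs over 25 mitosis genes. The value was 5.28% (2.84 to 8.87; 13 of 246) in mature neutrophils and 93.3% (77.9 to 99.2; 28 of 30) in precursors. Thinning left out 5 members and 232 mature neutrophils that were shallower. Without thinning the shares were 26.5%, 8.37% and 100%. In other cell types the thinned share was 1.49% in barcodes of the cortical gate, 2.51% in the endothelial gate, 8.03% in the macrophage gate and 9.65% in the T cell gate.

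With 1 or more mitotic UMIs the shares were 24.0% in members and 23.6% in mature cells. Exactly 1 was held by 27 members (7.89%) and 45 mature neutrophils (18.3%). That UMI was Kif23 in 5 and Cenpa in 10 of the 27 members, and Kif23 in 21 and Cenpa in 14 of the 45 mature cells. Larger counts were mostly in members, 28 of which held 10 or more UMIs against 1 mature neutrophil. Mki67, the proliferation marker, was at 176 CPM (163 to 189) in members, 9.75 CPM (5.19 to 16.7) in mature neutrophils and 580.4 CPM (533 to 631) in precursors. Of the 25 mitosis genes, 24 were higher than in mature neutrophils (median 2.14) and 17 lower than in precursors (median -1.34). Hmmr was at 51.9 and 0.75 CPM in members and mature cells, the mature value resting on 1 UMI, and Cenpf at 84.2 and 4.5 CPM. Kif23 was the exception to the first, at 41.4 and 75 CPM.

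**Figure D4:**
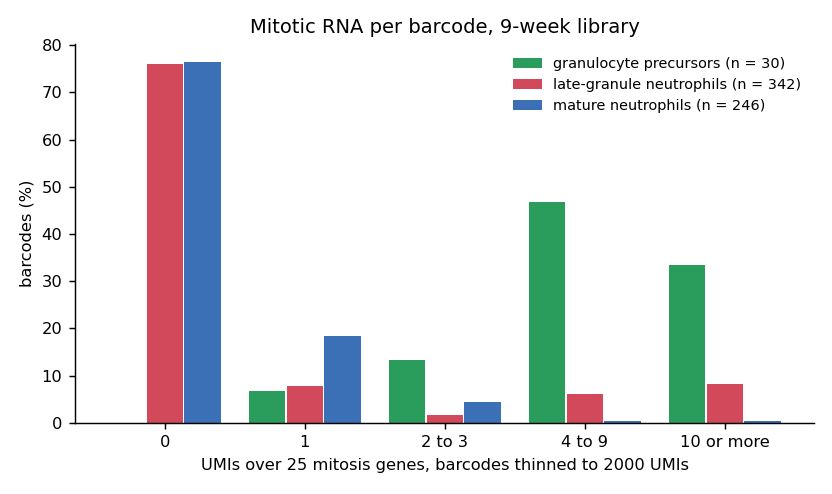
Share of barcodes (vertical axis, %) by their number of UMIs over 25 mitosis genes after thinning to 2000 UMIs, for granulocyte precursors, late-granule neutrophils and mature neutrophils at 9 weeks. The 10 or more class holds 33.3%, 8.19% and 0.407% of the 3 groups.

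The 55 cycling members were then set against the other 287 members that could be thinned. This split uses the 25 mitosis genes, which are not read further, and was made after the values were seen. The cycling members were deeper, with a median of 19003 against 9002 UMIs, and 4 and 35 were doublet calls. Of 7214 genes, 627 (8.69%) were higher and 359 (4.98%) lower in cycling members. The primary granule list had 4 of 11 genes higher and 1 lower (median 0.02), and the specific granule list 1 of 22 higher and 2 lower (median -0.01), beside a median of 0.03 over all genes. Among single genes, Fcnb was at 366 and 43.5 CPM, Ms4a3 at 134 and 13 CPM, Chil3 at 12589 and 5743 CPM and Cebpe at 851 and 369 CPM. DNA replication genes were higher in 21 of 24 (median 1.98), with Dut at 66 and 13.3 CPM. Of 13 gelatinase granule genes 7 were lower, and of 37 interferon-response genes 18, with 0 higher in each. Retnlg was at 1608 and 11436 CPM, Mmp8 at 282 and 1689 CPM, Mmp9 at 391 and 1777 CPM, and Olfm4, a marker of a subset of specific granules, at 2.75 and 104 CPM. Ltf, at 7353 and 8207 CPM, and Lcn2, at 18279 and 18359 CPM, were within 2-fold. Ltf is a gene of the rule, which all members met.

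The members also varied by how much of their RNA was Camp, Ngp and Ltf. They were split by that share into upper (115), middle (116) and lower (116) groups. The 3 rule genes made this split and are not read across it. The lower group held 36 of the 40 doublet calls and 24 of the 30 barcodes with 10 macrophage UMIs, the middle group 4 and 6 and the upper group 0 and 0. Between the upper and lower groups, 217 of 7812 genes (2.78%) were higher and 2515 (32.2%) lower. Cd74, of the MHC class II pathway, was at 83.8 CPM in the upper and 5315 CPM in the lower group, and the macrophage gene C1qa at 11.2 and 1151 CPM. The split was therefore repeated on the 295 members that were neither doublet calls nor held 10 macrophage UMIs, a step added after these values were seen. Then 371 of 6294 genes (5.89%) were higher and 924 (14.7%) lower. C1qa was at 12.7 and 10.4 CPM, but it is 1 of the 6 macrophage markers used for the removal, so that step set its fall. Cd74 was still at 49.99 and 1296 CPM, and 8 of 8 measured MHC class II genes were lower in the upper group (median -3.91). Some marker genes of other cell types also remained in the lower group. In the upper and lower groups Xcr1 held 1 and 43 UMIs, Cd79a 1 and 41, and Csf1r 1 and 41. The part of such barcodes in the values below was not tested.

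Among these 295 members, the groups also differed in mitosis genes and in single genes of granule formation. Fcnb was at 267, 109 and 15 CPM in the upper, middle and lower groups. Cebpe was at 802, 591 and 217 CPM, and Zmpste24 at 576, 401 and 97 CPM. All 25 mitosis genes were past 2-fold higher in the upper group, and the cycling share was 25% (16.7 to 34.9), 17.7% (10.7 to 26.8) and 5.05% (1.66 to 11.4). The primary granule list was mixed, with 4 of 10 genes higher and 3 lower (median 0.86). Ribosome genes, which were higher in precursors than in members, were not higher in the upper group: 0 of 11 ribosome biogenesis genes were higher and 7 lower (median -1.20), and 0 of 82 ribosomal protein genes were higher and 5 lower (median -0.49). In the gelatinase granule list 0 of 13 genes were higher and 7 lower (median -1.41). Retnlg was at 1557, 6312 and 27897 CPM, Mmp8 at 534, 1589.6 and 2948 CPM, and Cxcr2 at 194, 358 and 686 CPM. S100a8 differed less, at 124039, 123452 and 108365 CPM, as did Cd177, at 949, 1086 and 922 CPM. Over all 347 members the levels of Camp and Ngp per barcode had a Spearman correlation of 0.82, Camp and Ltf of 0.62, Ngp and Lcn2 of 0.76, and Camp and Retnlg of -0.62. These are descriptions of barcodes of 1 library that share its depth and scaling, include the 40 doublet calls and were chosen on the sum of Camp, Ngp and Ltf.

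Camp, Ngp and Ltf RNA was also found at a low level outside granulocytes at 9 weeks. In barcodes of the cortical gate, which should lack these genes, a UMI was present in 21.4% (19.7 to 23.2) at 9 weeks and 0.544% (0.349 to 0.809) at 6 weeks, at median depths of 15094.5 and 15721.5 UMIs. The levels were 15.8 and 0.347 CPM. At 9 weeks the endothelial gate was at 69.0 CPM, the T cell gate at 29.1 and the macrophage gate at 28.0, against 4.71, 0 (up to 2.19) and 0.156 CPM at 6 weeks. The gates left out barcodes with 20 or more of these UMIs, and none of those kept exceeded 4. Mature neutrophils had a UMI in 26.4% (22.5 to 30.6) at 9 weeks and 5.68% (2.76 to 10.2) at 6 weeks, or 285 and 53.0 CPM. Their median depths were 2025.5 and 1594.5 UMIs. Camp was at 0 in the 176 mature neutrophils of 6 weeks. The share in 9-week mature cells was above that of the 4 gates at a lower median depth than theirs, and the part of free RNA in it was not tested.

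**Figure D5:**
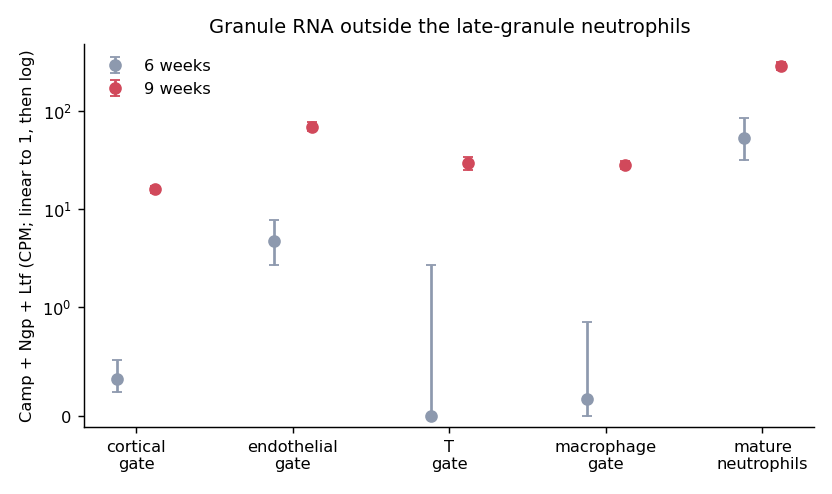
Camp, Ngp and Ltf CPM with exact Poisson 95% intervals in 4 gated cell types and in mature neutrophils at 6 and 9 weeks, on an axis that is linear up to 1 and logarithmic above. Each 9-week value lies above the 6-week value, at 15.8 against 0.347 CPM in the cortical gate.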

How the data were processed

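The authors deposited 1 matrix of UMI counts per library, with gene and barcode lists, made with Cell Ranger 6.0.1 and the mm10 build, per the submitters' processing notes, which also name Seurat. The sources used here do not give the annotation release. The matrices held 10812 barcodes and 99728879 UMIs at 9 weeks and 8880 and 97001752 at 6 weeks. Rows of 1 symbol were summed. Members, gene lists and comparisons were chosen with earlier results of these data known. Barcodes with 500 genes and at most 25% mitochondrial UMIs were kept. UMIs were summed per group, given as CPM with exact Poisson intervals, shares with Clopper-Pearson intervals. Log2 ratios used a pseudocount of 5 CPM, for genes at 10 CPM in 1 group and 10 UMIs over both, with a call at 2-fold. Cells are not replicates, so no p-value is given. Named genes had 50 CPM, 30 UMIs and a UMI in 10% of barcodes in the group where they were higher, the 15 largest ratios each way against mature neutrophils and 10 against precursors. Clone-named, mitochondrial, ribosomal, haemoglobin and receptor-segment genes were left out, and list members could also be named. Gates needed 50 UMIs of cortical, 10 of endothelial, 3 of T cell or 20 of macrophage markers, of 1 type only, with S100a8 and S100a9 below 2%. Doublets were called with Scrublet in scanpy 1.11.5 (586 and 475 calls) and kept. Promoters came from RefSeq (GRCm38.p6). The ratio script was tested on simulated data. Python 3.11.15, numpy 2.4.6 and scipy 1.17.1 were used. Alternatives changed thresholds, pseudocount, scaling, depth, doublets or free RNA, 1 choice at a time except where doublet calls and macrophage barcodes were removed together.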

Additional observations from a re-analysis of the deposited data

How the results depend on the processing

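The share of late-granule neutrophils at 9 weeks lay between 3.09% and 3.49% and was 0 at 6 weeks in all 8 alternatives tried for it. As a share of granulocytes it moved only with 1000 genes required, to 68.2%. Against mature neutrophils, the number of higher genes was 162 with a pseudocount of 20 CPM, 798 when the rule, S100, mitochondrial and ribosomal genes were left out of the total, 621 with the trimmed mean of M values, 617 with a mean of per-barcode CPM and 884 with S100a8 and S100a9 at 5% for mature cells. The number of lower genes was 610 with that pseudocount and 670 with the trimmed mean. Against precursors, the trimmed mean gave 1015 higher and 801 lower, and removing doublet calls gave 2410 lower. The mitotic share of members was 26.5% without thinning and 24.0% at 1 UMI; of mature cells 23.6% at 1 UMI and 2.03% at 3; of precursors 70.0% thinned to 1000 UMIs and 100% both without thinning and at 1 UMI. Between the upper and lower groups of members, 1114 genes were lower without doublet calls, and 371 were higher and 924 lower without these and the macrophage barcodes. The cause of these shifts was not tested. The 30 named genes kept their direction and 2-fold size against mature cells in all 14 alternatives, and against precursors 19 of 20 did in all 7, F13a1 being the exception. List medians moved more: 101 of 350 values against mature cells and 50 of 175 against precursors shifted by 0.25 or more on the log2 scale, and of medians past 2-fold 0 changed sign. The planned free RNA profile from cortical and endothelial barcodes was not run, since it holds those cells' own RNA; the profile of all barcodes was subtracted instead. Alternatives on macrophage barcodes, the shared barcode and precursors with late granule RNA were chosen after seeing the data. No paired analysis was possible because each age has 1 library. Depth limits the mature group, with 1333100 UMIs in all against 4179203 in members, and the 30 precursors, with 940668.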
